A study of Mus musculus with 2 samples.

Results

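The genes described here are 7 CXC chemokine genes of the neutrophil recruitment pathway, chosen by symbol from the 32285 genes in the gene list of the files. They are the ligands Cxcl1, Cxcl2, Cxcl3, Cxcl5 and Cxcl12 and the receptors Cxcr2 and Cxcr4. All 7 were found, and all 7 had UMIs (unique molecular identifiers, the tags by which single RNA molecules are counted) in both libraries. Their levels were followed by cell class in single-cell RNA of pancreatic tumours from KPPC mice, a genetically engineered model of pancreatic ductal cancer. The alleles and the number of mice per library are not given in the labels. Treatment of the mice, aged 6 weeks, lasted 14 days, with takinib (50 mg/kg) in 1 library and its vehicle alone in the other. Takinib inhibits TAK1, a kinase upstream of NF-kB. With 1 library per group there is no test and no p-value. Ranges in brackets after a level or ratio are 95% intervals for counting error alone, and the difference between animals or captures cannot be told apart from that between treatments.

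Cxcl1, Cxcl2, Cxcl3 and Cxcl5 carry the Glu-Leu-Arg motif that lets a CXC chemokine bind Cxcr2, the receptor by which mouse neutrophils leave the blood and enter inflamed tissue. They are early response genes, switched on by IL-1, TNF or IL-17 through NF-kB, and their mRNAs are short-lived. Cxcl12, made by stromal and endothelial cells, instead binds Cxcr4, which holds neutrophils in the bone marrow and is also used by lymphocytes and macrophages. Cxcr2 signalling releases neutrophils from the marrow, and in pancreatic tumours this axis is known for bringing in granulocytes.

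The 4 ligand genes that bind Cxcr2 lie side by side within 147 kb of chromosome 5 (GRCm38, GENCODE M21). Cxcl5 spans chr5:90759360-90761624, Cxcl3 chr5:90786103-90789600, Cxcl1 chr5:90891241-90893115 and Cxcl2 chr5:90903871-90905938, all on the plus strand. Cxcl12 lies on the plus strand at chr6:117168535-117181367, Cxcr2 on the plus strand at chr1:74153989-74161246 and Cxcr4 on the minus strand at chr1:128588199-128592293. Of the 7 genes, 6 matched an entry in the RefSeq promoter table (GRCm38.p6, 250 bases before to 50 after each start), and Cxcl5 did not. An NF-kB type motif, GGANNTTCC, searched on both strands, was present in 4.26% of the 32851 promoters of that length. It occurred 1 time in each of the promoters of Cxcl1, Cxcl2 and Cxcl3, beginning 70, 96 and 72 bases before the RefSeq start, and was not found in the windows of Cxcl12, Cxcr2 and Cxcr4. The 64 bases around the match are shown for these 3 ligands because each had exactly 1 match. Capitals mark the motif, the strand is plus, and the windows are aligned on the motif (chr5:90891163-90891226 for Cxcl1, chr5:90903791-90903854 for Cxcl2 and chr5:90786017-90786080 for Cxcl3).
Cxcl1: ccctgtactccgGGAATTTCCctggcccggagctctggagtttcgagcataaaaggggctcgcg
Cxcl2: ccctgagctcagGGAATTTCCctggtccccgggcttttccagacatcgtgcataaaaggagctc
Cxcl3: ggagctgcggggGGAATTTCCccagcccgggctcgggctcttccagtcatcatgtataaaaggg
The longest run present in all 3 windows was 11 bases and contains the motif. The AP-1 motif TGANTCA, present in 7.81% of all promoters, was found in none of the 6. A match is a description of these letters and not a measured site.

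The protein-coding transcripts of Cxcl2 and Cxcl3 share an identical run of 110 bases, 1687 bases from the 3′ end of Cxcl2 and 850 bases from that of Cxcl3, whereas the longest run that Cxcl1 shares with either is 23 bases. The sources used here do not say which transcript end was sequenced or how reads matching 2 genes were treated. A part of the difference between Cxcl2 and Cxcl3 is therefore uncertain.

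The libraries differed in more than treatment. Vehicle gave 9558 kept cells with a median of 3556 UMIs, and takinib 25183 with 2887. The median share of mitochondrial UMIs was 8.70% and 1.79%. Vehicle held 3087 cells with Y-linked UMIs and no Xist and 1075 with the reverse, so it contained cells of both sexes, while takinib held 0 Y-linked UMIs. Of the barcodes past the filters, 400 occurred in both libraries. Of 25 clusters, 22 were named from marker genes as 13 classes, and 3 stayed unnamed. All 12 neutrophil markers were detected in at least 10% of the takinib neutrophils and 8 of 12 in the vehicle neutrophils. Some clusters were led by genes known from other organs: Car4, Chil3, Marco and Ear2, known from macrophages of the lung, and Gkn1, Gkn2 and Muc5ac, known from stomach epithelium. Neutrophils were 2.73% of vehicle cells (261) and 46.1% of takinib cells (11606). Macrophages were 50.9% (4868) and 27.7% (6973).

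Neutrophil RNA was found in every class, and far more of it in takinib. S100a8 and S100a9, the most abundant neutrophil transcripts, summed to 117715 CPM in takinib neutrophils (CPM gives counts relative to all UMIs of the class in that library) and to between 7855 (macrophages) and 43966 (B cells) in the other 6 classes compared. In the same 6 vehicle classes they summed to between 54.2 and 768 CPM. Each member is therefore also given per 100 UMIs of S100a8 and S100a9, because RNA of 1 fixed make-up keeps its genes in 1 ratio in every class. Takinib neutrophils did not have 1 ratio. Their clusters held 10.2 to 36.1 Cxcl2, 0.811 to 3.77 Cxcl3 and 0.151 to 0.556 Cxcr2 UMIs per 100. The values given below for neutrophils as a class are pooled over these clusters.

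Over all kept cells, 6 of the 7 genes were higher in takinib. Cxcl2 had 364 CPM in vehicle (15300 UMIs) and 10052 CPM in takinib (1203497 UMIs), a ratio of 27.6 (27.2 to 28). Cxcl3 went from 37.3 to 1265 CPM, a ratio of 34.0 (32.3 to 35.7), and Cxcr2 from 7.14 to 127 CPM, a ratio of 17.7 (15.8 to 19.96). Cxcl5 went from 11 to 66.1 CPM, Cxcl1 from 18.1 to 78.3 CPM and Cxcr4 from 39.0 to 76.4 CPM. Cxcl12 stood at 22.3 CPM in vehicle against 19.9 CPM in takinib.

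These library totals combine which classes were captured and how much each class held. With vehicle levels in every class and the UMI shares of the takinib classes, Cxcr2 would come to 108 CPM, 15.2 times the vehicle library. The same substitution gives 1517 CPM for Cxcl2, 4.16 times, and 132 CPM for Cxcl3, 3.54 times. It gives 17.4 CPM for Cxcl1 and 9.84 CPM for Cxcl5, both below the vehicle libraries' values. With takinib levels and vehicle class shares, Cxcl2 would instead be 11.7 times the vehicle library, Cxcl3 21.3 times, Cxcl5 7.03 times, Cxcr2 5.61 times and Cxcl1 4.92 times. Cxcl12 showed the 2 parts in opposite directions: 0.293 times from class shares alone and 3.43 times from levels alone. For Cxcr2 the value was larger with the class shares alone than with the levels alone, and the levels outside neutrophils are taken up below with the neutrophil markers. For Cxcl1 and Cxcl5 only the levels gave a higher value than in vehicle. Of the 16 classes and unnamed clusters in this calculation, 2 had fewer than 20 vehicle cells.

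**Figure D1:**
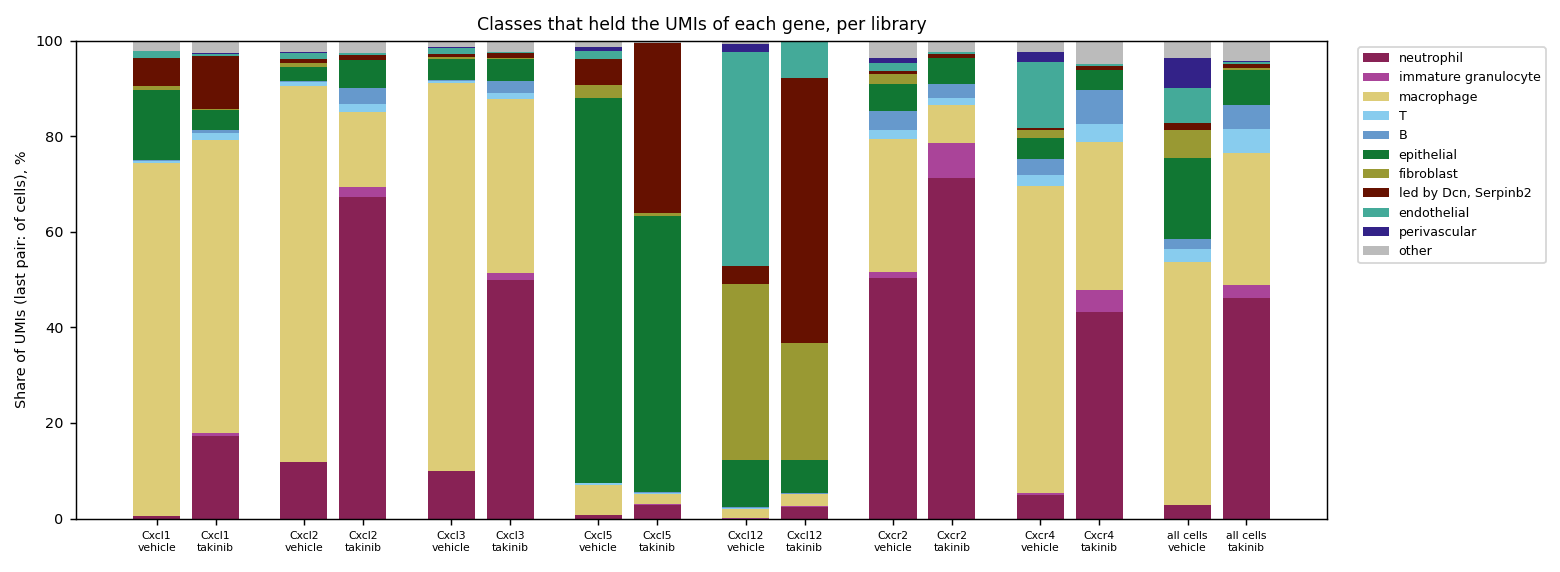
Stacked bars give the share (%) of each gene's UMIs held by each class in the vehicle and takinib library, and the last pair of bars gives the share of cells. Macrophages held 78.7% of Cxcl2 UMIs in vehicle and neutrophils 67.2% in takinib, while Cxcl5 stayed mainly with epithelial cells and the unnamed cluster led by Dcn and Serpinb2.

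The class that held most UMIs of a gene differed between the libraries for 4 of the 7 genes. For Cxcl2, macrophages held 78.7% of UMIs in vehicle and neutrophils 11.7%, against 15.6% and 67.2% in takinib. For Cxcl3, macrophages went from 81.2% to 36.5% and neutrophils from 9.90% to 50.0%. For Cxcr4, macrophages held 64.2% in vehicle and neutrophils 43.3% in takinib. For Cxcl12, endothelial cells held 44.8% in vehicle, whereas the unnamed cluster held 55.6% in takinib. Macrophages led for Cxcl1, epithelial cells for Cxcl5 and neutrophils for Cxcr2 in both libraries. Among cells with at least 2000 UMIs and 1000 genes, macrophages led for Cxcl3 (51.2%) and Cxcr4 (44.5%) in takinib and for Cxcr2 in vehicle (58.0%). This limit leaves out most neutrophils of both libraries, whose median was 1210 UMIs in vehicle and 1781 in takinib. With doublets kept or each library clustered alone, fibroblasts held 78.6% or 81.9% of takinib Cxcl12. Unnamed clusters led for takinib Cxcl1 (34.1%) with each library clustered alone and for vehicle Cxcl3 (48.3%) with doublets kept. Macrophages held most vehicle Cxcr2 under 3 settings (42.3% to 58.0%): the stricter limit on UMIs and genes, the lower mitochondrial limit, and vehicle cells of female origin alone.

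A ratio was counted as past 2-fold where its log2 value, computed after adding 10 CPM to the level in each library, was above 1 or below -1, among genes with at least 50 UMIs in either library of the class. In macrophages 4 of 7 members were higher and 0 lower, where 1.90% of all genes were higher and 1.15% lower. In B cells 4 of 5 were higher (10.6% of all genes higher, 2.86% lower), in T cells 4 of 5 (4.78% and 1.28%) and in epithelial cells 4 of 7 (2.25% and 1.87%). In neutrophils 3 of 7 were higher (4.67% and 16.3%), in fibroblasts 3 of 3 (2.09% and 5.41%) and in endothelial cells 3 of 5 (3.60% and 5.47%). None of the 7 was lower past 2-fold in any of the 7 classes. Some members reached 50 UMIs only in takinib, such as Cxcl1, Cxcl3 and Cxcr2 in B cells, with 1, 3 and 12 UMIs in vehicle. Those genes entered the count through the library where they were higher, so these counts are not a sign of anything particular to the members. Beyond this, Cxcl2 and Cxcl3 were higher in each of the 7 classes, and the neutrophil markers that were higher in the same classes are set beside those values below.

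**Figure D2:**
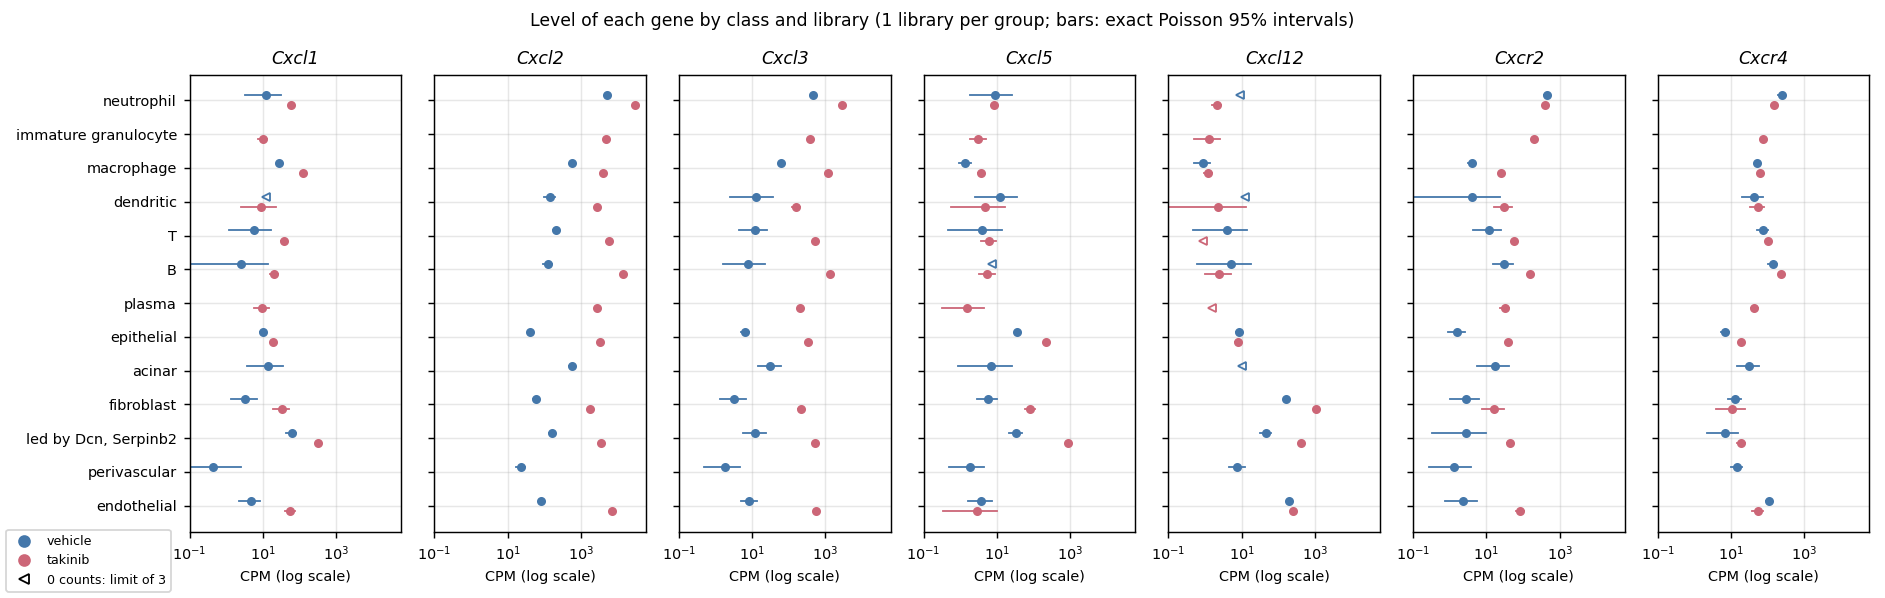
Each panel gives 1 gene's level in CPM on a log scale, by class, for vehicle (blue) and takinib (red), with exact Poisson 95% intervals; classes with fewer than 50 cells in a library are left out, and open triangles mark 0 counts at the limit of 3. Cxcl2 and Cxcl3 are higher in takinib in every class drawn for both libraries, while Cxcr2 in neutrophils lies at nearly the same place in both (450 and 402 CPM).

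Cxcl2, the main Cxcr2 ligand of myeloid cells, had 5344 CPM in vehicle neutrophils (5099 to 5597; 1795 UMIs) and 30078 CPM in takinib neutrophils (30012 to 30143; 808964 UMIs), a log2 ratio of 2.49. In takinib it was spread widely over the cells, the 10 highest of which held 1.15% of the UMIs. With each cell thinned to 1000 UMIs, 72.0% of vehicle and 97.7% of takinib neutrophils held at least 1 Cxcl2 UMI. Macrophages had 573 CPM in vehicle (563 to 584) and 3984 CPM in takinib (3966 to 4002), a log2 ratio of 2.78.

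The vehicle neutrophils belonged almost entirely (250 of 261) to a cluster led by Retnlg, a gene of mature neutrophils, the insulin gene Ins2, and Cxcr2 itself. Mmp8 was also among its 10 leading genes, and its second best score was for endocrine markers. The takinib neutrophils were spread over this cluster (2091 cells) and clusters led by G0s2 and Hdc (3669), Lst1 and Chil1 (3628) and Stfa2 (2218). Within the Retnlg cluster Cxcl2 stood at 4787 CPM in vehicle against 15614 CPM in takinib, a ratio of 3.26 (3.10 to 3.43). The G0s2 and Stfa2 clusters of takinib had 37745 and 37972 CPM and the Lst1 cluster 18546 CPM. Immature granulocytes of takinib, led by the granule genes Camp and Ngp, had 4900 CPM, close to the vehicle Retnlg cluster. The intervals of the G0s2 and Stfa2 clusters overlapped each other and lay above all other granulocyte clusters. Cxcl2 was left out of the clustering, but it is among the genes that lead the G0s2 cluster, so these levels are descriptions of the clusters.

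Cxcl2 in the remaining classes of takinib was high throughout: 14090 CPM in B cells (128 in vehicle), 7263 CPM in endothelial cells (82.8), 5995 CPM in T cells (212), 3301 CPM in epithelial cells (42.3) and 1743 CPM in fibroblasts (58.4). Each of these vehicle values was below the 302 CPM (261 to 347) of vehicle barcodes with 1 to 100 UMIs, which hold free RNA and no cell. The order of these classes by Cxcl2 in takinib was also their order by S100a8 and S100a9. Per 100 UMIs of S100a8 and S100a9, takinib neutrophils held 25.6 Cxcl2 UMIs, fibroblasts 21.9, endothelial cells 30.6, B cells 32.0, epithelial cells 34.3 and T cells 36.2. Fibroblasts were below the pooled neutrophils and the other 4 above them, with no interval overlapping that of the pooled neutrophils. The takinib neutrophil clusters themselves held 10.2 (Retnlg), 20.3 (Lst1), 27.8 (Stfa2) and 36.1 (G0s2) per 100. Fibroblasts, endothelial, B and epithelial cells lay within that range, and the T cell interval overlapped that of the G0s2 cluster. Macrophages held 50.7 per 100. The part of the neutrophil markers in the Cxcl2 of these classes was not tested. When the profile of the whole takinib library was subtracted until no S100a8 or S100a9 was left, 54.7% of macrophage Cxcl2 remained, 36.5% in T cells, 33.0% in epithelial cells, 28.3% in B cells, 24.8% in endothelial cells and 0% in fibroblasts.

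Cxcl3, whose protein is close to that of Cxcl2, followed it across classes (Pearson r = 0.98 over 22 class sums, which share libraries and background). Neutrophils had 461 CPM in vehicle (392 to 540; 155 UMIs) and 2814 CPM in takinib (2794 to 2834), a log2 ratio of 2.58. Macrophages stood at 60.5 CPM in vehicle against 1178 CPM in takinib, a log2 ratio of 4.07 and a ratio of 19.5 (18.4 to 20.6). The relation to S100a8 and S100a9 set Cxcl3 apart from Cxcl2: takinib macrophages held 15 Cxcl3 UMIs per 100, neutrophils 2.39 and the other 5 classes compared between 2.32 and 3.45. After the subtraction 80.7% of macrophage Cxcl3 remained. In neutrophils Cxcl3 was again highest in the G0s2 and Stfa2 clusters (3940 and 3762 CPM) and lower in the Retnlg cluster (411 CPM in vehicle, 1244 CPM in takinib).

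**Figure D3:**
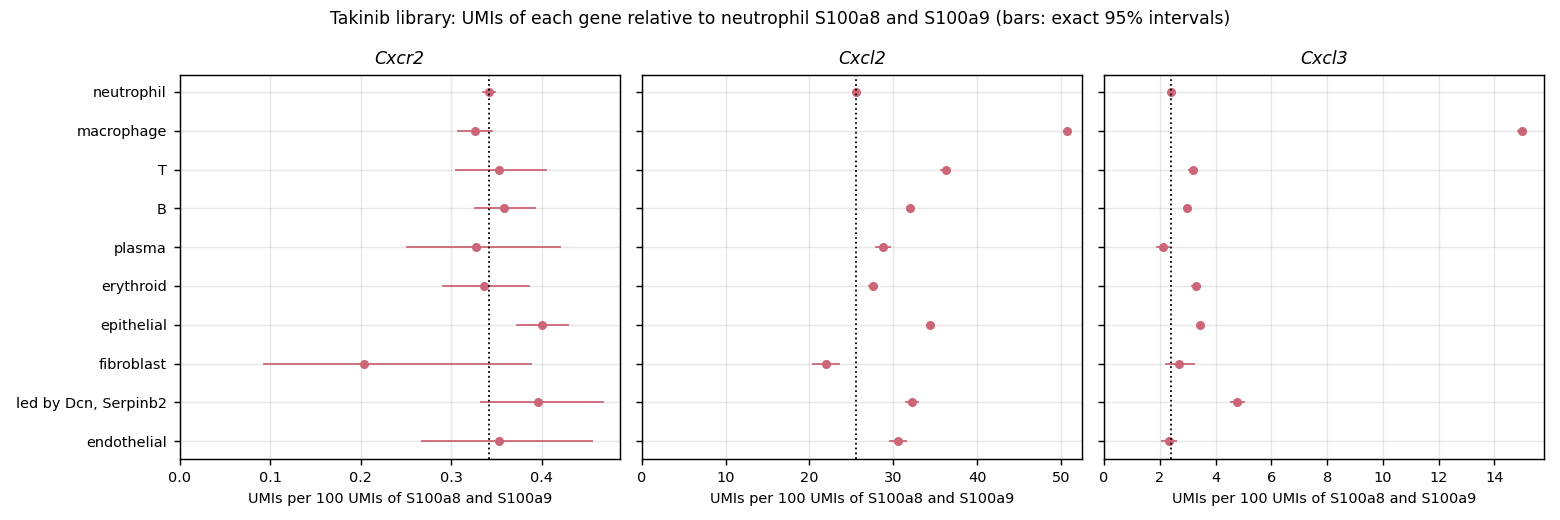
Points give UMIs of Cxcr2, Cxcl2 and Cxcl3 per 100 UMIs of S100a8 and S100a9 in takinib classes of at least 100 cells, with exact 95% intervals, and the dotted line marks neutrophils. Cxcr2 lies near the line of 0.341 in nearly every class, and macrophages stand far to the right of it for Cxcl2 (50.7) and Cxcl3 (15).

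Cxcl1, a ligand that many cell types make on inflammatory stimulation, had 26.8 CPM in vehicle macrophages (24.6 to 29.1; 563 UMIs) and 122 CPM in takinib macrophages (119 to 126; 5750 UMIs), a log2 ratio of 1.85 (1.17 with each library clustered alone). Vehicle barcodes with 1 to 100 UMIs, which hold free RNA and no cell, had 19.9 CPM of Cxcl1 (10.6 to 34.1), against 3.27 CPM in vehicle fibroblasts and 4.65 CPM in endothelial cells. After the whole vehicle profile was subtracted until no S100a8 or S100a9 was left, 74.2% of vehicle macrophage Cxcl1 remained. The macrophage clusters differed. A cluster led by U90926, F13a1, Saa3 and Arg1, with 3169 takinib and 88 vehicle cells, had 204 CPM in takinib (198 to 211) and held 41.5% of all Cxcl1 UMIs of that library. In vehicle it had 26.6 CPM from 6 UMIs. The cluster led by the MHC class II gene H2-Ab1, with 3646 vehicle and 367 takinib cells, stood at 22.5 CPM in vehicle against 18.3 CPM in takinib, a ratio of 0.815 (0.564 to 1.15). The cluster led by Car4 and Chil3 had 40.4 and 26.8 CPM, a ratio of 0.664 (0.540 to 0.819), and the Gpnmb cluster 49.3 and 98.9 CPM, a ratio of 2.01 (1.51 to 2.74). Cxcl1 was thus higher in takinib in the Gpnmb cluster and in a dividing cluster led by Pclaf (23.2 and 92.9 CPM), and not in the H2-Ab1 and Car4 clusters that made up most vehicle macrophages.

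Cxcl2 and Cxcl3 were higher in takinib in all of these macrophage clusters. In the H2-Ab1 cluster Cxcl2 went from 545 to 1289 CPM, a ratio of 2.36, and Cxcl3 from 58.2 to 192 CPM, a ratio of 3.31. In the Gpnmb cluster, which had the highest vehicle levels, Cxcl2 went from 909 to 3089 CPM and Cxcl3 from 260 to 1095 CPM. The 10 highest of its 226 vehicle cells held 54.2% of the Cxcl2 and 87.0% of the Cxcl3 UMIs, so these vehicle levels rest on few cells. The U90926 cluster had the highest takinib levels among macrophages, 5899 CPM of Cxcl2 and 1874 CPM of Cxcl3, and held 23.6% of the takinib library's Cxcl3. Per 100 UMIs of S100a8 and S100a9, Cxcl3 was 17.1 in the U90926 cluster, 18.1 in the Gpnmb cluster, 8.56 in the H2-Ab1 cluster and 4.65 in the Car4 cluster, each above the neutrophils' 2.39.

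Outside macrophages, Cxcl1 was highest in the unnamed cluster led by Dcn and Serpinb2, which scored highest for mesothelial and next for fibroblast markers. It had 60.7 CPM in vehicle (44.3 to 81.2; 45 UMIs in 136 cells) and 326 CPM in takinib (307 to 346; 1054 UMIs in 255 cells). The 10 highest takinib cells held 58.0% of those UMIs, so the level rests on few cells. Neutrophils had 11.9 CPM in vehicle from 4 UMIs and 60.4 CPM in takinib, a ratio of 5.07 (1.98 to 18.6), and in takinib 17.3% of Cxcl1 UMIs came from them. Within the Retnlg cluster, however, Cxcl1 was at 9.34 CPM (3 UMIs) and 14.7 CPM, with a ratio of 1.57 (0.513 to 7.85), which this depth cannot tell from 1. Epithelial cells had 10.4 and 18.5 CPM. Per 100 UMIs of S100a8 and S100a9, the unnamed cluster held 2.98 Cxcl1 UMIs and macrophages 1.56, against 0.0513 in neutrophils.

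**Figure D4:**
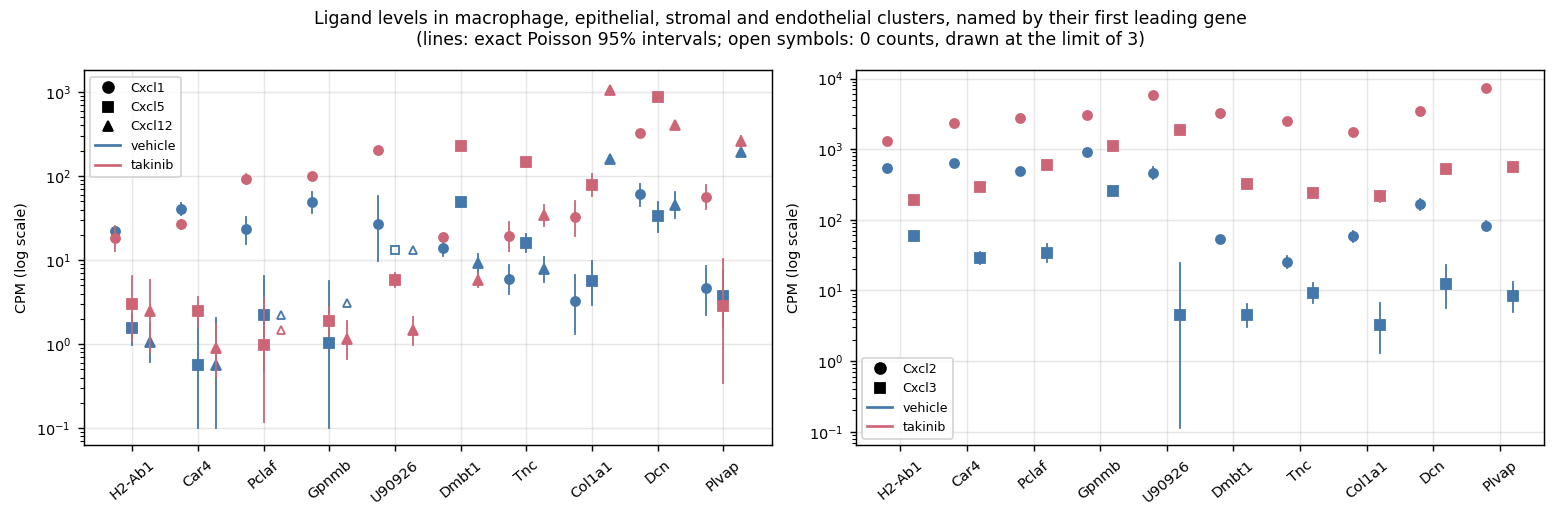
Levels in CPM on a log scale of Cxcl1, Cxcl5 and Cxcl12 (left) and Cxcl2 and Cxcl3 (right) in macrophage, epithelial, fibroblast (Col1a1), unnamed (Dcn) and endothelial (Plvap) clusters, each named by its first leading gene, for vehicle (blue) and takinib (red) with exact Poisson 95% intervals. Cxcl1 is not higher in takinib in the H2-Ab1 and Car4 clusters, whereas Cxcl2 and Cxcl3 are higher in every cluster drawn.

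Cxcl5, an epithelial ligand of Cxcr2, was found mainly in epithelial cells, which held 80.7% of its UMIs in vehicle and 57.7% in takinib. They had 34.6 CPM in vehicle (31.2 to 38.3; 372 UMIs) and 216 CPM in takinib (210 to 222; 4565 UMIs), a log2 ratio of 2.34. The cluster led by Dmbt1 and Mmp7 had 48.7 and 226 CPM, a ratio of 4.64 (4.13 to 5.23). The cluster led by Tnc, Tm4sf1 and Cdkn2a had 16 and 146 CPM, a ratio of 9.10 (6.91 to 12.1), so Cxcl5 was higher in takinib in both of the large epithelial clusters. In the takinib library 36.9% of the epithelial Cxcl5 UMIs came from 10 cells, and the highest cell alone held 306.

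The unnamed Dcn cluster was the second source of Cxcl5, with 33.7 CPM in vehicle (25 UMIs) and 871 CPM in takinib (840 to 904; 2817 UMIs), a ratio of 25.8 (17.5 to 40.0). Its share of the library's Cxcl5 went from 5.42% to 35.6%, although it was 1.42% of vehicle and 1.01% of takinib cells. Neutrophils had 8.93 CPM from 3 UMIs in vehicle and 8.22 CPM in takinib, and macrophages 1.38 and 3.64 CPM. The vehicle levels were below the 9.20 CPM (3.37 to 20.02) of vehicle barcodes with 1 to 100 UMIs. After the subtraction 0% of macrophage Cxcl5 remained in takinib, and neither class was read as a source. After it 93.3% of epithelial and 98.1% of unnamed-cluster Cxcl5 remained in takinib.

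Cxcl12, the ligand of Cxcr4, was found in fibroblasts, endothelial cells and the unnamed Dcn cluster. Fibroblasts had 162 CPM in vehicle (145 to 180; 346 UMIs in 554 cells) and 1044 CPM in takinib (961 to 1133; 580 UMIs in 102 cells), a log2 ratio of 2.62. It was 1.89 with doublets kept and 1.25 with each library clustered alone, where 418 and 458 takinib cells bore the fibroblast name. The 10 highest of the 102 takinib cells held 65.2% of these UMIs, against 35.8% in vehicle. The unnamed cluster had 45.9 CPM (34 UMIs) and 410 CPM (388 to 432), a ratio of 8.93 (6.36 to 12.95). Endothelial cells had 195 CPM in vehicle (177 to 215) and 258 CPM in takinib (222 to 299), a ratio of 1.32 (1.11 to 1.58) that is not past 2-fold. Cxcl12 was therefore higher within stromal cells while the library total was not. Fibroblasts were 5.80% of vehicle and 0.405% of takinib cells, and endothelial cells 7.49% and 0.413%. Neutrophils had 0 Cxcl12 UMIs in vehicle and 2.08 CPM in takinib.

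Cxcr2, the receptor of the first 4 ligands, had 450 CPM in vehicle neutrophils (381 to 527; 151 UMIs) and 402 CPM in takinib neutrophils (394 to 410; 10810 UMIs). The ratio was 0.894 (0.761 to 1.06), and no direction can be read from it: with the median gene of the class set to a log2 ratio of 0, Cxcr2 stood at 0.22, and with each library clustered alone at 0.81. Within the Retnlg cluster Cxcr2 was higher in takinib, 458 CPM against 854 CPM, a ratio of 1.87 (1.58 to 2.22). Thinned to 1000 UMIs per cell, 34.4% of vehicle and 56.1% of takinib cells of that cluster held a Cxcr2 UMI.

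Among takinib granulocytes Cxcr2 ran in another order than Cxcl2. It was highest in the Retnlg cluster (854 CPM), then in the G0s2 cluster (456 CPM; 442 to 470), the Stfa2 cluster (314 CPM; 301 to 326), immature granulocytes (205 CPM; 193 to 217) and the Lst1 cluster (137 CPM; 128 to 147). No neighbouring intervals in this order overlapped. Cxcr2 took no part in the clustering but is among the genes that lead the Retnlg cluster, so its place there is a description of that cluster. The Retnlg cluster combined the highest Cxcr2 with the lowest Cxcl2 of the 4 takinib neutrophil clusters, and the Lst1 cluster was low for Cxcr2 and second lowest for Cxcl2. Cell by cell, Cxcl2 was found in 97.8% of thinned takinib neutrophils with a Cxcr2 UMI and in 97.7% of those without, and in 68.2% and 74.0% in vehicle. With Cxcl2 in nearly every takinib neutrophil, this share could hardly differ there. In takinib immature granulocytes, where Cxcl2 was found in fewer cells, it was in 76.8% of cells with a Cxcr2 UMI and in 53.8% of those without.

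**Figure D5:**
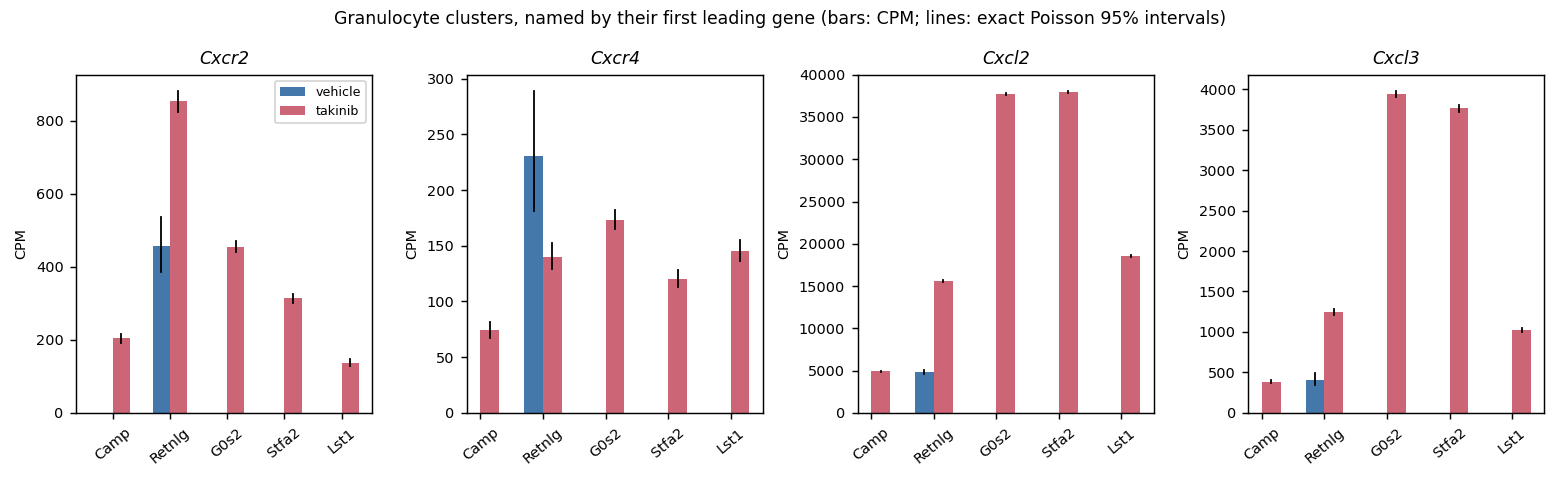
Bars give Cxcr2, Cxcr4, Cxcl2 and Cxcl3 in CPM in the immature granulocyte cluster (Camp) and the 4 neutrophil clusters, each named by its first leading gene, with exact Poisson 95% intervals as lines; vehicle is drawn where a cluster had at least 50 vehicle cells. Cxcr2 peaks in the Retnlg cluster (854 CPM in takinib) and Cxcl2 in the G0s2 and Stfa2 clusters (37745 and 37972 CPM).

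Cxcr2 UMIs outside granulocytes were compared with S100a8 and S100a9. Takinib neutrophils held 0.341 Cxcr2 UMIs per 100 (0.335 to 0.348), macrophages 0.326 (0.308 to 0.345), B cells 0.359 (0.326 to 0.393), T cells 0.352 (0.305 to 0.405) and endothelial cells 0.353 (0.268 to 0.455). Of the 10 other classes or unnamed clusters with at least 100 cells, 9 had intervals that overlapped that of neutrophils, and epithelial cells lay above at 0.400 (0.373 to 0.428). The log2 ratios of Cxcr2 in macrophages (1.35), B cells (2.06), T cells (1.66), epithelial cells (2.07) and endothelial cells (2.93) stand beside neutrophil markers that were higher in the same classes, whose part in them was not tested. After the subtraction 11.1% of takinib Cxcr2 remained in macrophages, 19.1% in B cells, 17.8% in T cells, 27.5% in epithelial cells and 17.8% in endothelial cells. Relative to the UMIs left, Cxcr2 went from 158 to 153 CPM in B cells, where 80.3% of all UMIs were removed. It went from 25.6 to 3.43 CPM in macrophages, 58.3 to 16.3 in T cells, 38.4 to 13.4 in epithelial cells and 83.7 to 29.4 in endothelial cells. In vehicle 83 of 300 Cxcr2 UMIs lay in macrophages, at 3.95 CPM, below the 12.3 CPM (5.30 to 24.2) of barcodes with 1 to 100 UMIs.

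Cxcr4, the receptor of Cxcl12, had 241 CPM in vehicle neutrophils (192 to 300; 81 UMIs) and 147 CPM in takinib neutrophils (143 to 152), a ratio of 0.611 (0.490 to 0.771). Within the Retnlg cluster it had 230 and 140 CPM, a ratio of 0.609 (0.477 to 0.786), so Cxcr4 and Cxcr2 differed in opposite directions there. The difference is not past 2-fold, and at a mitochondrial limit of 10%, which leaves 27 vehicle neutrophils, the log2 ratio of Cxcr4 in neutrophils was 0.81. B cells had 139 CPM in vehicle (104 to 180) and 226 CPM in takinib (209 to 244), and T cells 73.3 and 99.6 CPM, a ratio of 1.36 (0.971 to 1.95). Macrophages had 50.1 and 60.3 CPM, and endothelial cells 106 CPM in vehicle (92.8 to 121) and 53.9 CPM in takinib (38.1 to 74.0; 38 UMIs). Per 100 UMIs of S100a8 and S100a9, Cxcr4 was 0.125 in takinib neutrophils, 0.515 in B cells, 0.602 in T cells and 0.767 in macrophages.

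The genes most like each member over the 22 sums of at least 100 cells (Pearson r of log2(CPM plus 10)) are given as a description, since the sums share libraries and background. Cxcl2 was most like Ccl3 (r = 0.99), Clec4e, Cxcl3, Ccl4 and Il1b, and Cxcl3 most like Clec4e, Cxcl2, Acod1, Clec4d and Ccl3. Cxcr2 was most like Il1r2, Csf3r (both r = 0.96), Il18rap, Mxd1 and Slfn1. Cxcl12 was most like Thsd7a (r = 0.99), Nsg1, Galnt15, Serpina3n and Grb10, and Cxcl5 most like Crabp2 (r = 0.91), Steap1, Myrf, Cdh3 and Col24a1. Cxcl1 was most like Sod2 (r = 0.84), Cstb, Fth1, Saa3 and Dtnbp1, and Cxcr4 most like Inpp5d (r = 0.93), Klhl6, Lcp1, Ssh2 and Hcls1.

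Other genes of the pathway were taken from lists of related ligands, receptors, signalling genes and inducers. In macrophages 5 of 12 inducers or regulators of these ligands were higher past 2-fold and 0 lower (1.90% and 1.15% of all genes), with a list median log2 ratio of 0.72 against -0.01 over all genes. Il1b, which induces Cxcl1 and Cxcl2, stood at 470 CPM in vehicle against 1437 CPM in takinib, and Csf3, the granulocyte growth factor, 0.0952 CPM (2 UMIs) and 20.7 CPM, a ratio of 217 (60.0 to 1798). Il1a, Il1r1 and the NF-kB inhibitor Nfkbia were the other 3. Zfp36, whose protein speeds decay of such mRNAs, had 747 and 498 CPM. Of 7 other CXC ligands, Pf4 (237 and 801 CPM) and Cxcl13 (2.76 and 105 CPM) were higher and 0 lower. Of 7 other neutrophil attractant receptors, Fpr1, Fpr2 and Ltb4r1 were higher and 0 lower, and of 17 signalling genes 0 were higher and Rgs2 was lower (282 and 109 CPM).

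In neutrophils, where the median gene had a log2 ratio of -0.38, 3 of 12 inducers were higher (Csf3, Nfkbia and Nfkbiz) and 0 lower, against 4.67% and 16.3% of all genes. Nfkbia stood at 1515 CPM in vehicle against 3064 CPM in takinib. Among receptors, Fpr1, which binds formyl peptides, had 8.93 CPM (3 UMIs) in vehicle and 683 CPM in takinib, a ratio of 76.5 (26.2 to 371), and Fpr2 110 and 455 CPM, with Ptafr the third of 7 higher. Cxcr1, the related receptor, had 0 UMIs in vehicle and 15.4 CPM in takinib, at least 1.73-fold higher against 3 counts in vehicle. Of 16 signalling genes 4 were lower, Rgs2 (461 and 76.7 CPM), Grk2 (301 and 118 CPM), Grk6 and Plcb2, where 16.3% of all neutrophil genes were lower. The list median of -0.36 was close to that of all genes. Rgs2 restrains G protein signalling, and Grk2 and Grk6 phosphorylate active chemokine receptors.

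In epithelial cells, where 2.25% of all genes were higher and 1.87% lower, 5 of 12 inducers were higher and Csf2 lower (57.4 and 16.5 CPM). These 5 inducers and the 7 of 7 neutrophil attractant receptors that were higher there stand beside the neutrophil markers. Of the markers, 12 of 12 were above 0 in takinib epithelial cells at a sum of 10867 CPM, against 137 CPM in vehicle. The part of the neutrophil markers in both counts was not tested. In fibroblasts, where 5.41% of all genes were lower, beside the higher Cxcl12, Cxcl13 was higher (69.2 and 1734 CPM) and 4 of 6 other CXC ligands were lower: Cxcl14 (757 and 196 CPM), Cxcl10 (46.7 and 3.60 CPM), Cxcl16 (70.1 and 28.8 CPM) and Cxcl9 (51.9 CPM and 0 UMIs). In T cells Il17a, an inducer of Cxcl1 and Cxcl5 in epithelium, had 0 UMIs in vehicle and 433 CPM in takinib. In endothelial cells Ackr1, which carries CXC ligands across venules, had 61.9 and 79.5 CPM, a ratio of 1.28 (0.922 to 1.77).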

How the data were processed

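Single-cell RNA was deposited by the authors as raw UMI counts per gene and barcode, made with Cell Ranger 4 (vehicle) and 6.1.1 (takinib) per the file headers. The submitters' processing notes name Cell Ranger 2.1.1, STAR 2.0.4b, featureCounts 1.45 and mm10, with no role given. The 7 genes, markers and lists were chosen with earlier results of these data known.

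Barcodes with at least 1000 UMIs, 500 genes and at most 20% mitochondrial UMIs were kept (9872 and 26790). Scrublet removed 314 in vehicle. In takinib it marked 0.00373%, below the 0.5% of a working caller, so its 1607 top-scoring barcodes (6%) were left out. The libraries were clustered jointly in scanpy 1.11.5 (2000 variable genes without the members and listed genes, 30 components, 15 neighbours, Leiden resolution 1). Clusters were named from markers by a rule set after the clusters were seen. Counts were summed per class and library and scaled to CPM. Classes of at least 100 cells per library were compared. Intervals at 95% are exact Poisson for levels, exact conditional binomial for ratios and counts per 100, and the limit of a count of 0 is 3 counts. The ratio calculation was tested on simulated data. The named genes are all 7 members, up to 2 with the largest rise and 2 with the largest fall of each list and class, and the 5 genes most like each member. Other listed genes past 2-fold were named after their values were seen. The vehicle matrix held 704261 barcodes, 470280 with a UMI, while takinib held 34158, none under 500 UMIs, so free RNA could be measured in droplets without a cell only in vehicle. The subtraction of the whole-library profile removes S100a8 and S100a9 entirely. In takinib that profile held 23.0 Cxcl2 and 0.290 Cxcr2 UMIs per 100 of S100a8 and S100a9, against 25.6 and 0.341 in neutrophils. It is therefore not an upper limit of the neutrophil background for Cxcl2 and Cxcr2. Protein sequences were not used here.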

Additional observations from a re-analysis of the deposited data

How the results depend on the processing

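With the main settings, 25 of 39 log2 ratios of members in the compared classes were past 1. Of 240 values of these 25 recomputed across the 10 alternatives, 236 kept their sign and 231 stayed past 1. Those that reversed came from subtracting the whole-library profile: Cxcl2 in fibroblasts went to -2.21 and Cxcl3 in fibroblasts to -0.11, while Cxcl1 in B cells and Cxcl3 in endothelial cells went to 0. In neutrophils, Cxcl2 was 2.95, Cxcr2 -0.45 and Cxcr4 0.81 at a mitochondrial limit of 10%. With each library clustered alone Cxcl2 was 3.28, Cxcl3 3.50, Cxcr2 0.81 and Cxcr4 -0.17 in neutrophils, Cxcl1 in macrophages 1.17 and Cxcl12 in fibroblasts 1.25, and the cells given each name differed (420 vehicle neutrophils, 458 takinib fibroblasts). With the median gene at 0, neutrophil Cxcl2 was 2.87, Cxcl3 2.97, Cxcr2 0.22 and Cxcr4 -0.29. Thinning to 1000 UMIs gave 2.35 for Cxcl2 and 2.32 for Cxcl3 in neutrophils, 2.12 for Cxcl5 in epithelial cells and 1.94 for Cxcl12 in fibroblasts. With 1 CPM added, Cxcl1 in macrophages was 2.15 and Cxcl5 in epithelial cells 2.61. With doublets kept, Cxcl12 in fibroblasts was 1.89. With only vehicle cells that had Xist and no Y-linked UMI, Cxcl5 in epithelial cells was 1.74. Except for the fewer or differently named cells just given, the cause was not tested. At 2000 UMIs and 1000 genes fewer than 20 vehicle neutrophils were left, so no neutrophil ratio was computed. The class holding most UMIs of a member changed in 13 of 112 values, 6 of them of Cxcl12, whose source moved between endothelial cells, fibroblasts and the unnamed Dcn cluster, 3 of vehicle Cxcr2, which moved to macrophages, as takinib Cxcl3 and Cxcr4 did once each, and 1 each of takinib Cxcl1 and vehicle Cxcl3, which moved to unnamed clusters. No paired analysis was possible because each group has 1 library. Depth limits vehicle neutrophils most, with 335910 UMIs in 261 cells.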
